A study of Mus musculus with 84 samples.

Results

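Hindbrain astrocytes that lack GLAST on their surface were compared between chronic experimental autoimmune encephalomyelitis (EAE) and EAE score 4, to ask which parts of the acute response resolve and which persist. The libraries were chosen by their titles, 6 from chronic EAE and 6 from score 4, which gives 12 of the 66 libraries of the EAE experiment and 12 of the 84 of the whole series. EAE is a mouse model of multiple sclerosis in which T cells primed against a myelin peptide enter the central nervous system.

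All mice behind these libraries were of the C57BL/6J strain by the labels. By the study's methods EAE was induced in females 10 weeks old, with the peptide MOG35-55 in complete Freund's adjuvant and pertussis toxin. They were killed later, at each disease stage, so that age at sampling may differ between score 4 and chronic EAE. Score 1 is a limp tail and score 4 complete paralysis of the hind legs. No score is stated for the chronic stage in the sources used here. Hindbrain means cerebellum and brain stem. Cells were sorted as CD11B-negative, CD45-negative, ACSA-2-positive and GLAST-negative (GLASTneg), and RNA of up to 2 mice made up a library. 5 libraries of unimmunized control mice and 6 of score 1 serve as references for the same population. The labels do not tell whether the libraries of a group came from separate mice throughout, so p-values measure spread between libraries. In the main fit that spread was estimated over all 66 libraries of the EAE experiment, other populations included.

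Interferon-gamma from T cells activates the kinases JAK1 and JAK2 and, through them, transcription factors that bind gamma-activated sites (GAS) in DNA. Complexes that contain STAT2 and IRF9 bind interferon-stimulated response elements (ISRE). Their targets include IRF1, the machinery that loads peptides on MHC class I, and the immunity-related and guanylate-binding GTPases, which astrocytes express at very low levels in healthy tissue.

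Each library of score 4 or chronic EAE held between 1799523 and 3507580 counts, and between 13072 and 14671 genes exceeded 3 counts in it. Counts were made from reads at the 3′ ends of transcripts, so that levels (CPM, counts scaled to library size after TMM normalization) are compared between groups and not between genes. Of 3 counts, the limit below which a gene was treated as not detected, the equivalent was 0.856 to 1.76 CPM, which covers counting error only. All 11 astrocyte markers were detected in these libraries, and their summed level was 29060 to 32640 CPM at score 4 and 22400 to 28670 CPM in chronic EAE, without overlap. Slc1a3, the gene of GLAST, was at 1186 to 1763 CPM at score 4 and at 944 to 1134 CPM in chronic EAE. In GLAST-positive (GLASTpos) hindbrain astrocytes it averaged 7777 ± 2577 CPM (SD, n = 6) at score 4. The transcripts of the excluded surface proteins were low, with Ptprc (CD45) at 5.79 to 58.8 CPM at score 4 and 1.41 to 39.6 CPM in chronic EAE, and Itgam (CD11B) at 4.00 to 14.03 and 4.64 to 16.2 CPM.

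From score 4 to chronic EAE, 20 genes fell and none rose (0%). They were led by interferon-gamma targets: the immunity-related GTPase Igtp (log2 fold change −3.75 ± 0.55 SE), the peptide transporter subunit Tap1 (−2.80 ± 0.43), the MHC class I heavy chain H2-K1 (−1.78 ± 0.30) and tapasin, Tapbp (−1.59 ± 0.30). Genes of the same groups were still called above control in chronic EAE, among them Iigp1, B2m and the complement gene C4b. No astrocyte marker passed the test between the stages in the fit of all 66 EAE libraries. Gfap, 1 of the 11 markers, was called lower in a fit of only the 23 libraries of this population. Of 23324 genes tested by edgeR's quasi-likelihood method with Benjamini-Hochberg adjustment, 0.0857% were called lower at an adjusted p under 0.05 and a log2 fold change below −1. At an unadjusted p under 0.05, 1026 genes (4.4%) were lower and 842 (3.61%) higher, and DESeq2 called 31 genes lower and 2 higher. The count depends strongly on which libraries share the estimate of spread. In a fit of only the 23 libraries of this population, 103 of 20008 genes (0.515%) were called lower and 18 (0.09%) higher.

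Igtp, which helps to direct other immunity-related GTPases to membranes, was at 874 CPM in the lowest, 1396 in the median and 1599 in the highest library at score 4. In chronic EAE the same values were 39.9, 50.5 and 222 CPM. The groups were far apart, and controls lay lower still, at 9.98 to 17.7 CPM. Its mean at score 4 was 13.4-fold that in chronic EAE (adjusted p = 7.18e-05, edgeR). Igtp lies at chr11:58199556-58207591 (GRCm38) and overlaps Irgm2 on the same strand, so that reads in the shared stretch may be lost or assigned to either.

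**Figure D1:**
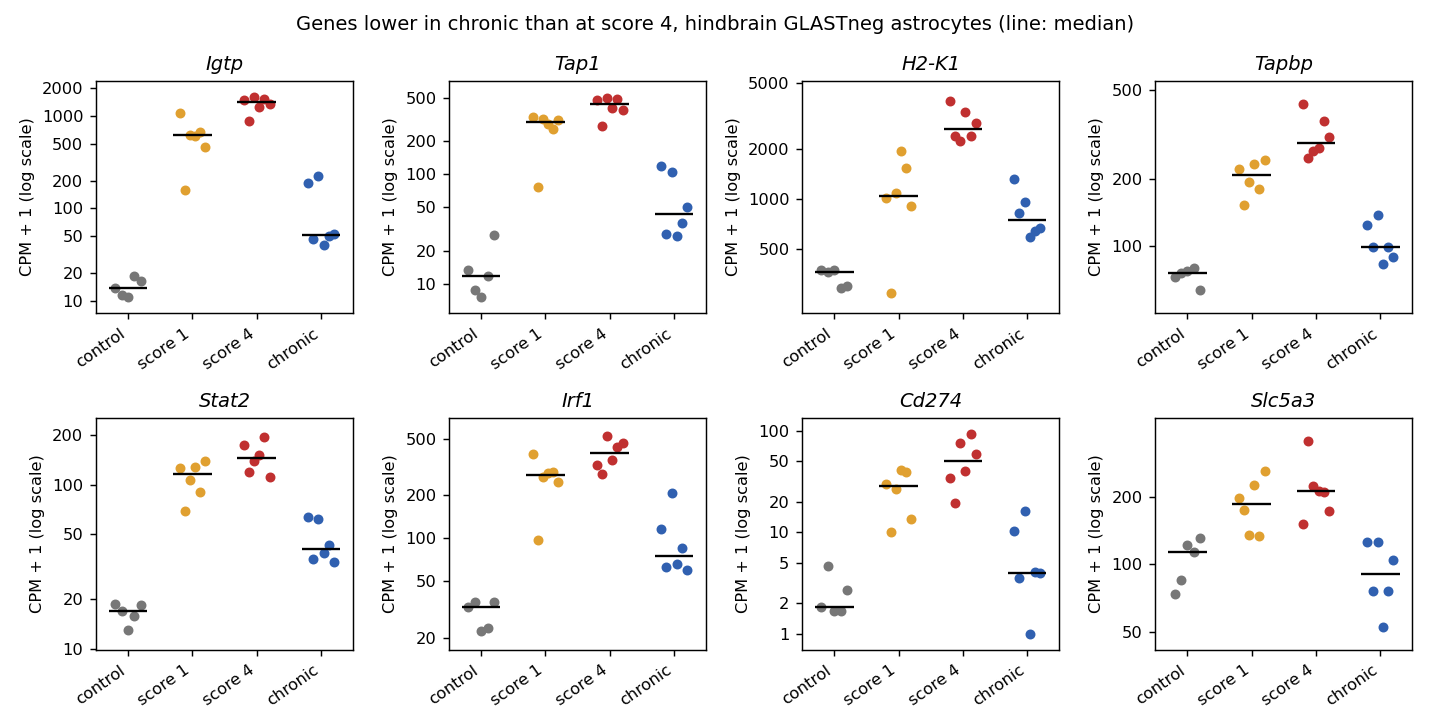
Level of 8 genes that fell from score 4 to chronic EAE, as CPM + 1 on log axes, by library (points) with the median of each group (line), in control (5 libraries), score 1, score 4 and chronic EAE (6 each). In each panel all chronic libraries lie below all score 4 libraries, and Igtp, Tap1 and Cd274 have the chronic libraries replicate 1 and replicate 3 above the other 4.

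The promoters of several of the genes that fell are shown here because they carry the motifs through which interferons act. RefSeq promoters (GRCm38.p6) were found for 15 of the 20 genes. The 250 bases before the start were searched on both strands for GAS, as TTCNNNGAA, and for ISRE, as GAAANNGAAA, or TTTCNNTTTC on the other strand. Capitals mark the matches, and windows of 100 bases are printed in the direction of the gene. Igtp (chr11:58199456-58199555, plus strand) and Irgm2 (chr11:58214862-58214961, plus strand, within the annotated span of the longer Irgm2 transcript) hold a GAS and an ISRE close together. Gbp7 (chr3:142530211-142530310, plus strand) holds both motifs too, Irf1 (chr11:53769878-53769977, plus strand) a GAS, and B2m (chr2:122147503-122147602, plus strand) and Stat2 (chr10:128270248-128270347, plus strand) an ISRE.
Igtp: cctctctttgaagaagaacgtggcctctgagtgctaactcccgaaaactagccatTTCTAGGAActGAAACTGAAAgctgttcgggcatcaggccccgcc
Irgm2: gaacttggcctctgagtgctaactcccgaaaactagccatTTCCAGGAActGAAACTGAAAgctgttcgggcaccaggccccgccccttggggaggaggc
Gbp7: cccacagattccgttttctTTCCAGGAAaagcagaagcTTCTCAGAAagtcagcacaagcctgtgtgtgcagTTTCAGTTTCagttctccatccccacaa
Irf1: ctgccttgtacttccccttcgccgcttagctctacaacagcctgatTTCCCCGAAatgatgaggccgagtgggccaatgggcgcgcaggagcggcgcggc
B2m: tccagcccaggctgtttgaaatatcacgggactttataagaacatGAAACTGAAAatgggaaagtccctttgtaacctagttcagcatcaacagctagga
Stat2: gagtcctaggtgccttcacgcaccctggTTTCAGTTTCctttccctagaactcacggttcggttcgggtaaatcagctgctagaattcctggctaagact

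In Igtp the GAS begins 45 bases before the start and the ISRE 34 bases before it. In Irgm2 the distances are 75 and 64 bases, so that the spacing of the pair is the same. Of the 15 genes, 7 held at least 1 of the motifs (46.7%), against 10.3% of the 13961 tested genes with a promoter. 3 of the 15 held both (20.0%), against 0.329%. Igtp and Irgm2 are among these, and their windows are nearly the same sequence, so they do not count as separate cases. Of the 107 genes with a promoter that were called higher than control at score 1, 27.1% held at least 1 motif and 6.54% both. That list includes 19 of the 20 genes that fell. Psmb8, not printed, held a GAS. No match was present in these 250 bases of Tap1, H2-K1, Tapbp, Slc5a3, Cd274, Slc38a2, Irf9 or Ifi47. The motif matches are a description of sequence and were not related to binding.

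Among the interferon-gamma GTPases, 5 of the 15 tested fell (Igtp, Iigp1, Irgm2, Ifi47 and Gbp7), and all 15 had a negative log2 fold change. Their median was −2.72, against 0 over all genes tested. Of all 23324 genes 0.0857% fell and 10638 had a negative sign, and these values stand beside the counts of every list below. Iigp1, an effector that damages the vacuoles of intracellular parasites, ranged from 396 to 845 CPM with a median of 747 at score 4, and from 38.7 to 197 CPM with a median of 62.9 in chronic EAE. The ranges did not overlap (log2 fold change −2.80 ± 0.58, adjusted p = 0.0167, edgeR). Irgm2, a regulator of these effectors, had a median of 315 CPM at score 4 (201 to 436) and 25.01 CPM in chronic EAE (12.7 to 117). Gbp7, a guanylate-binding protein, had a median of 243 CPM (169 to 291) against 40.0 CPM (25.3 to 110). For Irgm2 the log2 fold change was −2.72 ± 0.60 and for Gbp7 −2.19 ± 0.43. Ifi47 was at 61.1 to 97.0 CPM at score 4 and at 3.75 to 37.5 CPM in chronic EAE, and at 0 in all 5 control libraries. The other members did not pass the test in the fit of all libraries, with Gbp2 at −2.74 ± 0.65 (adjusted p = 0.0625, edgeR) the nearest. In the fit of 23 libraries 11 of the 15 were called lower. Members of these families share sequence, and reads could be split between near copies.

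Antigen presentation by MHC class I followed the same direction in its dedicated parts. Of 22 genes tested 5 fell, against 0.0857% of all genes, and all 22 had a negative sign. The median log2 fold change was −1.64, or −1.54 with groups at or under 3 counts set to that floor. In the fit of 23 libraries 14 of the 22 were called lower. Tap1, which carries peptides into the endoplasmic reticulum, was at 272, 437 and 498 CPM in the lowest, median and highest library at score 4 and at 26.3, 42.2 and 117 CPM in chronic EAE. No chronic library reached the score 4 range (adjusted p = 8.1e-05, edgeR). The 3′ read counting of Tap1 could be affected by Psmb9, which overlaps it on the opposite strand, because whether the counting used strand is not given in the sources used here.

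H2-K1 was at 2254 to 3925 CPM with a median of 2647 at score 4 and at 590 to 1319 CPM with a median of 745 in chronic EAE. Tapbp, which holds class I molecules at the peptide transporter, was at 247 to 433 CPM with a median of 290 and at 82.1 to 137 CPM with a median of 97.9. Both separated the groups fully, with adjusted p = 0.000952 and 0.00498 (edgeR). B2m, the light chain of class I, had a median of 881 CPM at score 4 (636 to 1588) and of 302 CPM in chronic EAE (220 to 516), a log2 fold change of −1.47 ± 0.32. Psmb8, a catalytic subunit of the immunoproteasome, had a median of 110.0 CPM (51.2 to 144) against 14.1 CPM (7.59 to 41.1), or −2.35 ± 0.54. H2-D1, the second classical heavy chain of this strain, was at 475 to 957 CPM at score 4 and 206 to 389 CPM in chronic EAE. It did not pass the test in the fit of all libraries (−1.37 ± 0.36, adjusted p = 0.143, edgeR), although the groups did not overlap, and it was called in the fit of 23 libraries. The general chaperones of the pathway were near 0, with Calr at −0.09 ± 0.21 and Pdia3 at −0.02 ± 0.18.

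Of 40 interferon-stimulated genes tested 4 fell, among them the transcription factors Irf1, Irf9 and Stat2, against 0.0857% of all genes. All 40 had a negative sign, and the median log2 fold change was −1.54. Stat2 changed from a median of 145 CPM (111 to 193) to 39.7 CPM (32.9 to 62.6), with a log2 fold change of −1.71 ± 0.34 (adjusted p = 0.0141, edgeR). Irf1, a primary target of interferon-gamma, changed from 394 CPM (283 to 519) to 74.7 CPM (59.3 to 207). Irf9 changed least of these, from 228 CPM (194 to 291) to 88.9 CPM (70.7 to 139), or −1.30 ± 0.28. None of these ranges overlapped between the stages. Irf1 shares its locus with Gm17334 on the opposite strand, a gene outside the naming rule that was also called lower (−2.37 ± 0.53). The antiviral genes Isg15 (−1.67 ± 0.55), Rsad2 (−1.86 ± 0.49) and Bst2 (−1.92 ± 0.45) did not pass the test in the fit of all libraries. In the fit of 23 libraries 25 of the 40 were called lower, these 3 among them, and DESeq2 also called Bst2.

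**Figure D2:**
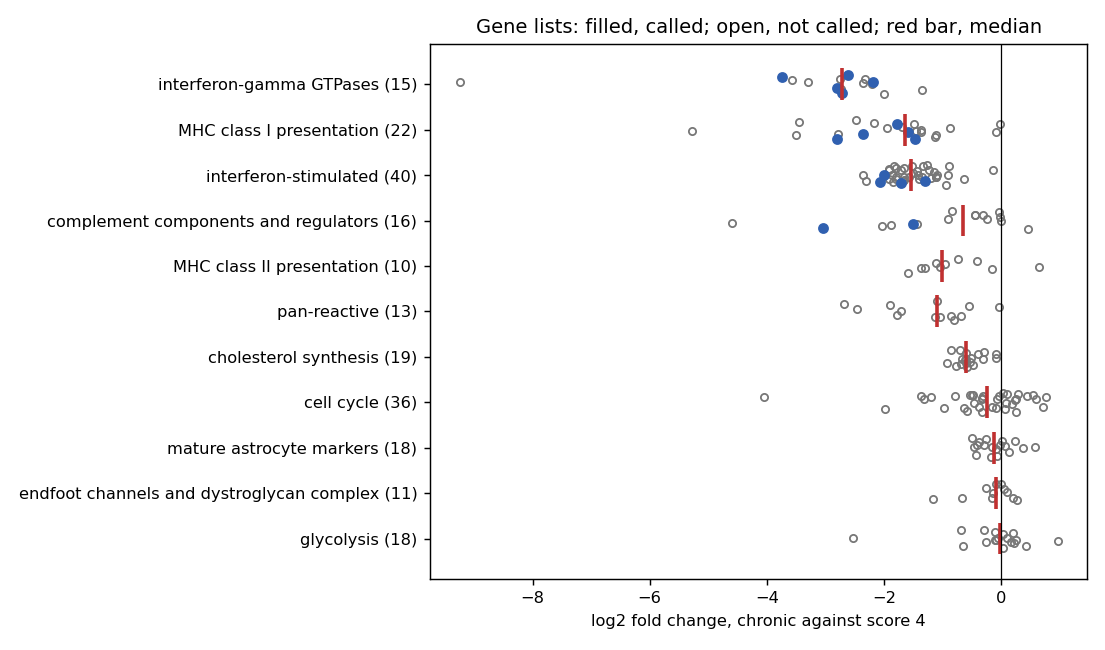
Log2 fold change from score 4 to chronic EAE of the genes of 11 lists (number tested in brackets), with called genes filled, others open and the median of each list as a red bar. The interferon and class I lists have medians of −2.72, −1.64 and −1.54, and the astrocyte marker, endfoot and glycolysis lists have medians near 0.

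The remaining genes that fell were of other kinds. Cd274, the checkpoint ligand PD-L1, which restrains T cells, was at 18.4, 48.9 and 92.4 CPM in the lowest, median and highest library at score 4 and at 0, 3.001 and 15.3 CPM in chronic EAE. The groups did not overlap, and chronic libraries reached the control range of 0.666 to 3.68 CPM (−3.24 ± 0.68, adjusted p = 0.0167, edgeR). Serping1, the inhibitor of complement protease C1, was at 54.4 to 97.9 CPM at score 4 and at 4.04 to 22.6 CPM in chronic EAE (−3.05 ± 0.63). C4b, a complement component upstream of C3, was at 580 to 1075 CPM and at 154 to 511 CPM (−1.51 ± 0.35, adjusted p = 0.0493, edgeR). C4a is a near copy of C4b. Over the 16 complement components and regulators tested these were the 2 that were called, and the median was −0.65, or −0.45 with the floor. The fit of 23 libraries called 3.

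2 transporters fell outside any list. Slc5a3, the sodium-coupled importer of myo-inositol, was at 151, 211 and 355 CPM in the lowest, median and highest library at score 4 and at 51.6, 89.6 and 125 CPM in chronic EAE. Controls were at 72.7 to 130 CPM, so that the chronic level was that of the controls (chronic against control −0.17 ± 0.25). Its reads may in part belong to Mrps6, within which it lies on the same strand. Slc38a2, a sodium-coupled importer of neutral amino acids, was at 149 to 307 CPM at score 4 and at 59 to 124 CPM in chronic EAE (−1.27 ± 0.27, adjusted p = 0.0256, edgeR). Against control it was at 0.20 ± 0.29 in chronic EAE.

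All 20 genes that fell had every chronic library below every score 4 library, as had 158 of all genes tested (0.677%), and 59 had the reverse (0.253%). The 6 chronic libraries were not alike, however. The summed level of the 15 interferon-gamma GTPases was 774 CPM in chronic replicate 1 and 840 CPM in replicate 3, and between 174 and 216 CPM in the other 4. At score 4 it was 2108 to 3849 CPM. Chronic replicates 1 and 3 also had the highest summed levels of the 14 T cell markers (48.2 and 122 CPM, against 13.8 to 31.4 CPM in the other 4) and of the 16 myeloid markers (224 and 233 CPM, against 137 to 143 CPM). At score 4 the T cell markers summed to 29.0 to 205 CPM and the myeloid markers to 90.9 to 375 CPM, with score 4 replicate 1 highest in both. None of the T cell, myeloid or oligodendrocyte markers was called between the stages. Yet 13 of the 14 T cell markers had a negative sign, with a median log2 fold change of −1.40, or −1.14 with the floor, and their summed level had a median of 55.4 CPM at score 4 and 23.9 CPM in chronic EAE. Of the myeloid markers 11 of 16 were negative (median −0.35), and all 10 oligodendrocyte markers were (median −0.52). Cldn5 of endothelial cells and Cd79b and Ms4a1 of B cells were at 0 in all 12 libraries. The oligodendrocyte markers summed to 2520 to 11410 CPM at score 4, highest in replicate 6, and to 2458 to 5025 CPM in chronic EAE. The part of these other cells in the results was not tested, and in such bulk libraries fewer cells with a transcript and less of it per cell cannot be told apart.

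**Figure D3:**
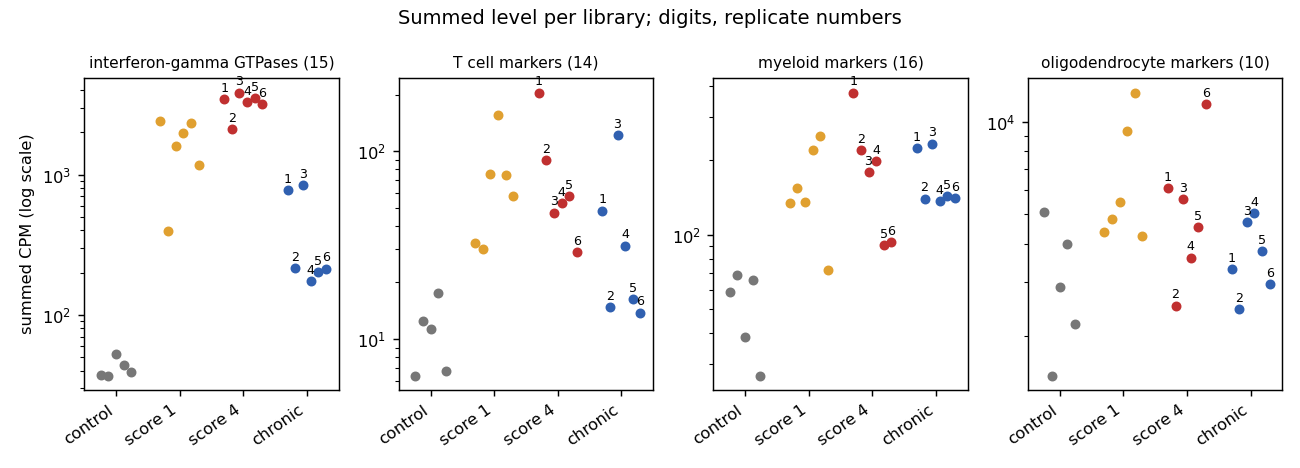
Summed CPM per library (log axes) of the interferon-gamma GTPases and of the T cell, myeloid and oligodendrocyte markers, with the number of genes in brackets, the 4 groups on the horizontal axis and replicate numbers beside the score 4 and chronic points. Chronic replicates 1 and 3 are the highest of their group in the first 3 panels.

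With both libraries of highest T cell marker level left out (score 4 replicate 1 and chronic replicate 3), an alternative chosen after seeing the data, 16 genes were called lower and none higher, and 14 of the 16 were among the 20. Leaving out 1 library at a time gave 4 to 27 called genes. Without chronic replicate 2, 4 or 5 there were 4 each, and without replicate 6 there were 5. Igtp, Tap1, H2-K1 and Tapbp were called in all 21 alternatives. Each of the other 16 lost its call without at least 1 of the 12 libraries. Slc5a3 kept it in 9 of these 12 fits, C4b and Gm17334 in 2, and Psmb8 and Ifi47 in 3.

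How far the score 4 response had receded was also seen against control. At score 4, 165 genes (0.707%) were called higher than in control and 5 (0.0214%) lower. In chronic EAE 44 (0.189%) were called higher and 1 (0.00429%) lower. Of the 165, 20 were called lower from score 4 to chronic EAE and 42 were still called higher in chronic EAE, with 9 in both counts. These comparisons share libraries, so that no overlap was tested. The 9 genes that fell and were still above control were Igtp, Tap1, Psmb8, B2m, Gbp7, Iigp1, Ifi47, Irf9 and C4b. By group means, Igtp in chronic EAE was 7.45-fold control, C4b 7.52-fold and Iigp1 63.6-fold. Iigp1 had at most 5 counts in a control library (0 to 2.662 CPM), close to the floor of 3 counts, so that its fold is poorly determined. The chronic medians lay below the means, at 50.51 against 99.35 CPM for Igtp, 217.7 against 258.3 CPM for C4b and 62.93 against 100.7 CPM for Iigp1. For Ifi47, at 0 in controls, the level was at least 8.78-fold higher than the floor of 3 counts per library. By list, 6 of the 15 interferon-gamma GTPases, 6 of the 22 class I genes and 13 of the 40 interferon-stimulated genes were called above control in chronic EAE, against 11, 15 and 31 at score 4. These counts depend on the fit. With the 23 libraries 150 genes (0.75%) were called above control in chronic EAE and 354 (1.77%) at score 4, and the lists had 10, 8 and 25 called genes in chronic EAE against 15, 17 and 37 at score 4. H2-K1 was nearest to the threshold among those that fell and were not called against control (1.303 ± 0.32, adjusted p = 0.0529, edgeR). Tapbp was at 0.52 ± 0.31 and Cd274 at 1.85 ± 0.86 against control.

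A list that used neither stage was that of the 148 genes called higher than in control at score 1 (0.635%), where 2 (0.00857%) were called lower. 19 of them fell from score 4 to chronic EAE, against 0.0857% of all genes, and none rose. A negative sign was seen in 144, against 10638 of all 23324 genes. Their median log2 fold change was −1.33, against 0 over all genes. In 68 of them every chronic library lay below every score 4 library, against 0.677% of all genes. Among the 10 with the largest change at score 1, Cxcl10, a chemokine for T cells, was at 41.01 to 76.9 CPM at score 4 and 3.29 to 26.6 CPM in chronic EAE without passing the test (−2.46 ± 0.81), and it was called in the fit of 23 libraries. Ccl2, a chemokine for monocytes, was at 3.53 to 43.6 CPM and at 0 to 3.23 CPM (−4.57 ± 1.35, adjusted p = 0.359, edgeR). Gbp6 ranged from 7.13 to 288 CPM at score 4 and from 0 to 52.4 CPM in chronic EAE, so that the groups overlapped. Ccl2 and Gbp6 were also called lower in the fit of 23 libraries. C1ra, Lgals9, Ms4a4b and Trbc2 were below 27 CPM in all these libraries and overlapped between the stages.

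Other reactive genes differed between the stages without a call in the fit of all libraries. Serpina3n, an acute-phase protease inhibitor, was at 279 to 588 CPM with a median of 438 at score 4 and at 52.0 to 237 CPM with a median of 125 in chronic EAE (−1.78 ± 0.43, adjusted p = 0.0786, edgeR). Gfap, the intermediate filament of reactive astrocytes, was at 182 to 285 CPM and at 64.5 to 178 CPM (−1.04 ± 0.32, adjusted p = 0.467, edgeR). In the fit of 23 libraries both were called lower. Neither gene had overlapping groups, and both were still called above control in chronic EAE, Serpina3n at 8.60-fold and Gfap at 3.77-fold. Lcn2, an iron-binding acute-phase protein, was at 22.7 to 65.02 CPM at score 4 and at 0.421 to 21.6 CPM in chronic EAE (−2.67 ± 1.01), and was called in the fit of 23 libraries. Vim overlapped between the stages (−0.56 ± 0.41). Of the 13 pan-reactive genes that the study lists, none was called between the stages, although all 13 had a negative sign, with a median of −1.09. 5 of them were called higher than control at score 4 and 3 in chronic EAE. In the fit of 23 libraries 4 were called lower between the stages, and 8 and 5 were called above control. Of its 11 A1 genes, the set seen after lipopolysaccharide, 3 fell, all named above (Serping1, Iigp1 and Psmb8), and 6 were called lower in the fit of 23 libraries.

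**Figure D4:**
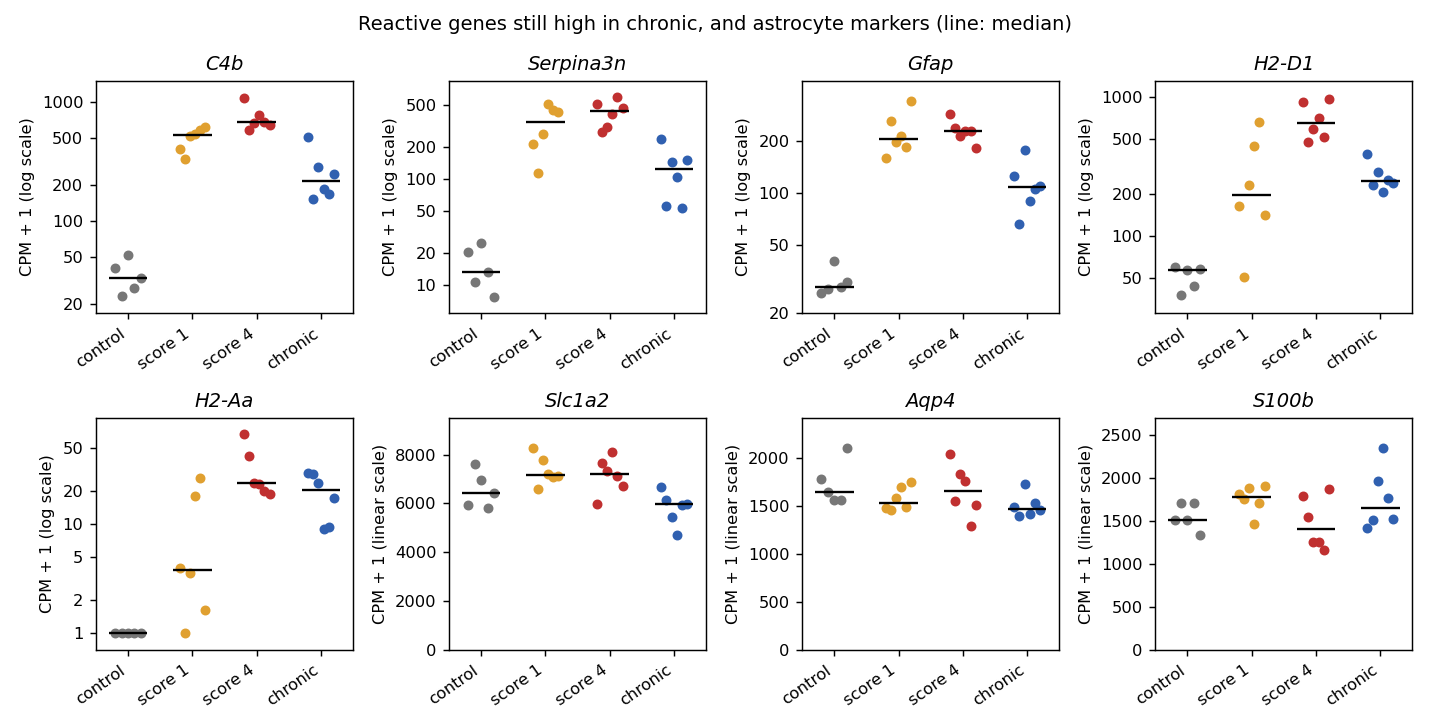
Level per library of 5 reactive or antigen-presenting genes on log axes and of 3 astrocyte markers on linear axes (CPM + 1), with the median of each group as a line. C4b, Serpina3n, Gfap, H2-D1 and H2-Aa in chronic EAE lie above the control libraries, and Slc1a2, Aqp4 and S100b overlap between score 4 and chronic EAE.

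H2-Aa of MHC class II and C1qa of microglia were above all controls at both stages, with levels that overlapped between the stages. H2-Aa, a class II alpha chain, was at 0 in the 5 control libraries, at 17.8 to 65.8 CPM at score 4 and at 7.98 to 28.8 CPM in chronic EAE. The stages overlapped (−0.74 ± 0.72), and the chronic mean was at least 12.7-fold higher than the floor in controls. None of the 10 class II genes was called between the stages in either fit. Above control, 5 were called at score 4 and 2 in chronic EAE, and 6 at each stage in the fit of 23 libraries. C1qa, the complement subunit made mostly by microglia, was at 42.9 to 216 CPM at score 4 and 85.9 to 139 CPM in chronic EAE (−0.04 ± 0.49), and at 7.87 to 31.5 CPM in controls. The myeloid markers summed to 27.0 to 68.98 CPM in controls, below all score 4 and chronic libraries.

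Astrocyte genes had smaller median changes than the interferon lists. Of 18 mature astrocyte markers none was called, where 0.0857% of all genes were called lower and 0% higher. Their median log2 fold change was −0.12, with 12 of the 18 negative. The 11 astrocyte markers had a median of −0.26, with 9 negative, and their summed level was lower in every chronic library, as given above. Aqp4, the endfoot water channel, was at 1292 to 2040 CPM at score 4 and at 1397 to 1728 CPM in chronic EAE. Slc1a2, the main glutamate transporter, was at 5966 to 8119 CPM and at 4689 to 6685 CPM (−0.30 ± 0.25). Slc1a3 was at −0.45 ± 0.25 with no overlap between the stages, and was not called. Fgfr3 (−0.02 ± 0.26), Sox9 (0.02 ± 0.28), S100b (0.25 ± 0.18), Aldh1l1 (−0.43 ± 0.29), Atp1b2, which carries the ACSA-2 epitope (−0.32 ± 0.27), and Gja1, the main astrocyte connexin (−0.23 ± 0.36), also remained without a call. Btbd17 was at 640 to 957 CPM at score 4, 929 to 1433 CPM in chronic EAE and 953 to 1758 CPM in controls, with a narrow overlap between the stages (0.57 ± 0.26). For Gdf10, a Bergmann glia gene, the value was −0.90 ± 0.41.

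The enzymes of cholesterol synthesis, a service of astrocytes to neurons, had small values of a single sign. All 19 genes tested were negative, with a median of −0.60, and none was called. Cyp51 had the smallest adjusted p (−0.86 ± 0.20, adjusted p = 0.0505, edgeR), with a change below the size that a call needs, at 423 to 739 CPM at score 4 and 269 to 460 CPM in chronic EAE, with overlap. It is outside the naming rule and was chosen after its values were seen. Hmgcs1 was at 361 to 827 CPM and at 276 to 548 CPM (−0.62 ± 0.21). The summed level of the 19 genes was 3091 to 5311 CPM at score 4 and 2412 to 3610 CPM in chronic EAE, so that the stages overlapped, and no member was called against control at either stage. Of 36 cell cycle genes none was called between the stages. Mki67 was below 5 CPM in all 12 libraries and Top2a at 5.91 to 47.01 CPM at score 4 and 0 to 12.9 CPM in chronic EAE (−1.20 ± 0.69).

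No gene rose from score 4 to chronic EAE in the fit of all libraries. Of the 44 genes called above control in chronic EAE, 42 were also called at score 1 or score 4, and the others were Meg3 and Map1b. Both are named after their values were seen. Meg3, a long noncoding RNA rich in neurons, averaged 106 CPM in controls, 130 CPM at score 4 and 318 CPM in chronic EAE (chronic against score 4, 1.29, adjusted p = 0.126, edgeR). Map1b, a microtubule protein of neurons, averaged 45.7, 56.9 and 113 CPM. In the fit of 23 libraries Meg3 was 1 of the 18 genes (0.09%) called higher from score 4 to chronic EAE, and 1 of 5 erythroid markers was another. The 12 neuron markers summed to 126 to 338 CPM at score 4 (median 229) and to 163 to 367 CPM in chronic EAE (median 302). From score 4 to chronic EAE 2 of the 12 had a negative sign, with a median log2 fold change of 0.55. None was called higher in either fit, and 1 was called lower in the fit of 23 libraries. Against control 1 of the 12 was negative in chronic EAE, with a median of 1.04. The part of neuron RNA in these values was not tested. DESeq2 called Meg3 and Hoxa7 higher, a homeobox gene of the caudal nervous system.

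The same contrast was read in the other EAE populations. GLASTpos hindbrain astrocytes had 213 genes called lower (0.913%) and 627 (2.69%) higher, from 6 libraries of score 4 and 4 of chronic EAE. Spinal cord GLASTneg astrocytes had 284 lower (1.22%) and 460 (1.97%) higher, from 6 libraries each. At score 4 the means of Slc1a2, Slc1a3, Atp1b2, Aqp4, Fgfr3, Sox9, Aldh1l1, Gja1 and Gfap were lower in spinal cord than in hindbrain GLASTneg, and that of S100b was higher. Aqp4 averaged 83.8 CPM in those spinal cord libraries against 1662 CPM in hindbrain GLASTneg, and Slc1a3 30.8 CPM against 1402 CPM, while S100b averaged 2208 CPM against 1481 CPM. The 20 genes that fell here, and were chosen for it, had a median log2 fold change of −2.13 in hindbrain GLASTneg, −3.10 in hindbrain GLASTpos and −1.12 in spinal cord astrocytes, and 18 of them were called lower in GLASTpos as well.

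**Figure D5:**
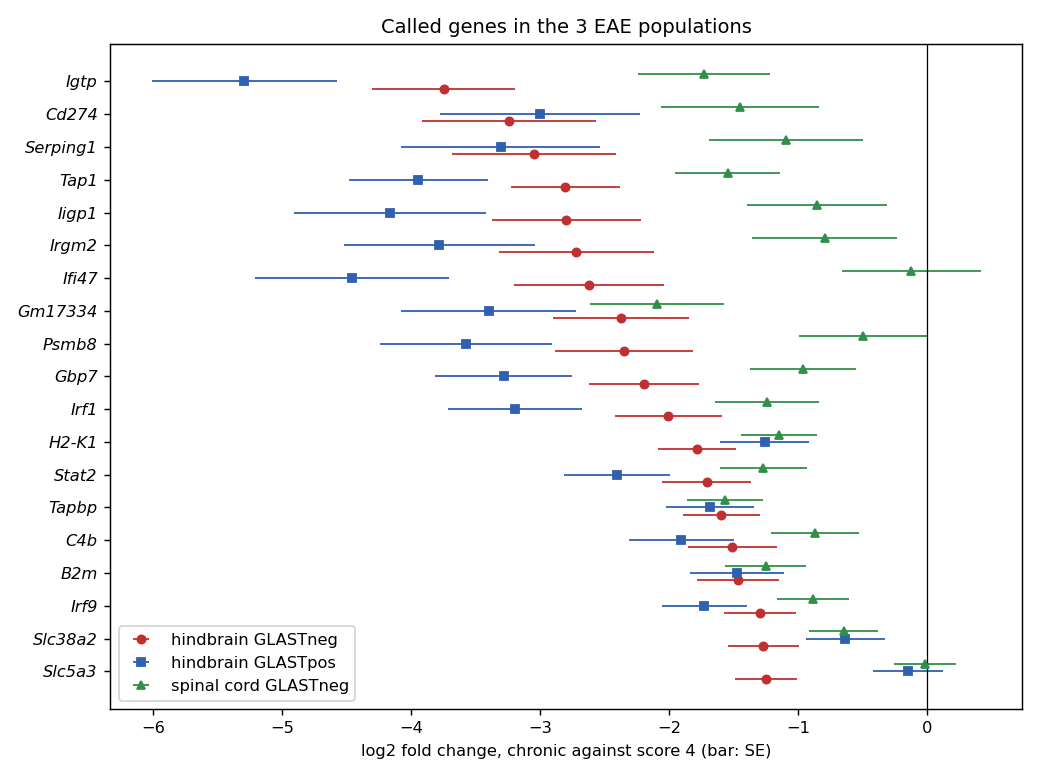
Log2 fold change (points) from score 4 to chronic EAE, with SE (bars), of 19 of the 20 genes that fell in hindbrain GLASTneg astrocytes, in these, in hindbrain GLASTpos and in spinal cord GLASTneg astrocytes. Slc5a3 is at −1.25 in hindbrain GLASTneg and near 0 in the others.

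In tests of the difference itself, 92 genes (0.394%) had a lower and 8 (0.0343%) a higher log2 fold change in hindbrain GLASTneg than in GLASTpos, and none of the 20 was among them. For Igtp the difference was 1.55 ± 0.77 (adjusted p = 0.36, edgeR). Against spinal cord 91 genes (0.39%) had a lower and 39 (0.167%) a higher value, again with none of the 20. Slc5a3 came nearest, at −1.24 ± 0.34 (adjusted p = 0.0678, edgeR), with means of 221 and 92.7 CPM in hindbrain GLASTneg and of 57.1 and 56.6 CPM in spinal cord. A difference that misses the threshold does not show that the populations changed alike. Markers of other cell types did differ between the hindbrain populations. Of 12 neuron markers 7 were called higher in GLASTpos and none in GLASTneg, and 2 passed the test of the difference. So did 2 of 10 oligodendrocyte and 2 of 8 oligodendrocyte precursor markers, with 2 and 3 called higher in GLASTpos. Titles of libraries carry numbers, of which hindbrain GLASTneg and GLASTpos libraries share 4 at score 4 and 4 in chronic EAE. Hindbrain GLASTneg and spinal cord libraries share 3 at score 4 and 5 in chronic EAE. Mice may therefore be shared between populations, while the tests treat libraries as independent.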

How the data were processed

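RNA of sorted astrocytes was made into QuantSeq 3′ FWD libraries. The authors aligned reads to GRCm38 with HISAT 0.1.5, counted them per gene with HTSeq 0.6.1p1 in union mode and deposited raw counts of 66 EAE libraries for 48526 genes, per the labels and the methods of the study. The strand setting is not given in the sources used here. Every deposited count column was mapped to a sample, and the table of the other experiment of the series was not used. Reads of genes that overlap can be lost in union mode.

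Here counts were scaled by TMM, and 23324 genes were kept, those whose counts summed to 10 or more, and fitted over 12 groups with the quasi-likelihood test of edgeR 4.0.16 in R 4.3.3. Contrasts were two-sided, with Benjamini-Hochberg adjustment over all genes of the fit, and calls needed both an adjusted p below 0.05 and a change of more than 1 on the log2 scale. SE is that of the log2 fold change. Fits with DESeq2 1.42.0, other scaling, filters, libraries and covariates were alternatives. The scripts were tested on simulated data.

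The genes named are the 15 smallest p-values per direction at 5 CPM or more, all list members with an adjusted p under 0.05, the 10 largest changes at score 1, and a fixed set of astrocyte, reactive, proliferation and leukocyte genes. List members given as examples and genes marked in the text were chosen after their values were seen. The members, the 38 gene lists and the 13 marker lists were chosen with earlier results of these data known. Folds against a group with no library above 3 counts use that floor. The smallest chi-square per degree of freedom between any 2 libraries of a group was 7.51, so every library was kept as 1 replicate. Figures and summaries used Python 3.11.15, pandas 2.3.3 and matplotlib 3.10.9. The values of 1 called gene are not reported here.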

Additional observations from a re-analysis of the deposited data

Results flagged for a closer look

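In groups of 6 libraries, 13 of 96 pairs of a named gene and a stage had a library that stood apart from the rest by Dixon's criterion. Chance gives about 1 in 20 for independent, normally distributed values. CPM at low levels are skewed and the pairs share libraries, so that the count cannot be set against that rate. In chronic replicate 1 these were C4b at 510.6 CPM (next highest 283 CPM), Gbp6 at 52.4 CPM (4.84), Lcn2 at 21.6 CPM (5.65) and Serping1 at 22.6 CPM (9.88). In chronic replicate 3 they were Ccl2 at 3.23 CPM (0.684), Ms4a4b at 18.2 CPM (6.50) and Trbc2 at 14.9 CPM (4.45). In score 4 replicate 1 Ptprc stood at 58.8 CPM (19.4), Ms4a4b at 26.4 CPM (9.20) and Lgals9 at 24.7 CPM (7.43). In score 4 replicate 2 Slc5a3 was highest, at 355 CPM (223), and Iigp1 lowest, at 396 CPM (next lowest 714). Lcn2 in score 4 replicate 5 was at 65.02 CPM (32.9). Score 4 replicate 1 and chronic replicates 1 and 3 are also the libraries with the most T cell and myeloid marker RNA in their groups. The part of that RNA in these values was not tested.

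1 named gene had a log2 fold change from score 4 to chronic EAE that differed from that of another population. Itgam was higher by 4.79 on the log2 scale than in spinal cord (adjusted p = 0.0172, edgeR), where it was at −4.33. The mean in spinal cord was 93.1 ± 209 CPM (SD, n = 6) at score 4.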

How the results depend on the processing

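The number of genes called from score 4 to chronic EAE was 20, and 33 with DESeq2, 53 without a filter on low counts, 121 in the fit of 23 libraries and 135 in the fit of the 12 libraries. It was 112 in the fit of 23 libraries with a covariate for an S number in the title above the median of 40. What these S numbers stand for is not stated. It was 21 with the scaling of DESeq2, 19 with filterByExpr and 16 without the libraries of highest T cell marker level. Leaving out single libraries gave 4 to 27, the lowest without chronic replicate 2, 4, 5 or 6 and 13 without score 4 replicate 5 or 6. With the replicate number as a block 26 genes were called. Same-numbered libraries of the stages had deviations correlated at −0.0662 to 0.0707, and 1 of 6 correlated best with its own number, so the numbers do not pair libraries.

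Against control, the fit of 23 libraries called 390 genes at score 4, 157 in chronic EAE and 409 at score 1, in place of 170, 45 and 150. DESeq2 called 92 and 238 and the fit without filter 97 and 239 in chronic EAE and at score 1. DESeq2 called 209 differences from GLASTpos and 298 from spinal cord, in place of 100 and 130. Of the single named genes, none that was called changed sign, and only Fgfr3, Sox9 and Mki67 did, none of which was called. Leaving out single libraries gave −0.084 to 0.027 for Fgfr3, −0.073 to 0.115 for Sox9 and −0.561 to 0.222 for Mki67, and without the libraries of highest T cell marker level they were 0.011, −0.124 and 0.054. The causes were not tested. Depth limits genes near 1 CPM, where 3 counts are reached in few libraries.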
